A study of Rattus norvegicus with 9 samples.

Results

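The cardiac myosin chain genes Myh6, Myh7, Myl2, Myl3, Myl4 and Myl7 were followed through cultures of rat heart fibroblasts of 3 ages. They were taken by gene symbol from the count table and are 6 of its 17337 genes, and all 6 passed the filter on low counts. The cells came from Sprague Dawley rats at embryonic day 18 (fetal), postnatal day 1 (neonatal) and an age of 7 weeks (adult). All were freshly isolated cells, at passage 0, that had been grown to confluency in DMEM with 10% serum, 0.1 mM ascorbic acid and penicillin and streptomycin. Each age had 3 RNA-seq libraries. The labels do not say that the libraries of an age came from separate animals or cultures, so the p-values below measure the spread between these libraries, which may be technical. No allele, sort or drug treatment is named for any of them.

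Myosin is the motor of the sarcomere, the contractile unit of striated muscle. Each motor joins a pair of heavy chains, which split ATP and pull on actin, to essential and regulatory light chains that stiffen and tune the lever arm. Myh6 encodes the fast alpha heavy chain and Myh7 the slow beta heavy chain, and in rodent ventricles the beta form leads before birth and the alpha form after it, a switch driven by thyroid hormone. Myl2 and Myl7 are the ventricular and atrial regulatory light chains. Myl3 is the ventricular essential light chain, and Myl4 is the atrial one, which the fetal ventricle and embryonic skeletal muscle also use. These chains are known as products of cardiomyocytes, not of fibroblasts.

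The heavy chain genes also carry microRNAs within their introns, which are shown here because they sit inside 2 of the 6 genes and share a seed. On the rn6 build, Myh6 lay on the minus strand of chr15:33605653-33629592, with 5925 exon bases, and Myh7 on the same strand of chr15:33634422-33656089, with 5923 exon bases. The hairpin Mir208a lay in intron 28 of 37 of Myh6, at chr15:33613451-33613533, and Mir208b in intron 28 of 37 of Myh7, at chr15:33639510-33639621. Myh7b, another heavy chain gene of striated muscle, holds Mir499 in intron 18 of 40. The mature sequences below are from RefSeq (GRCr8), with the seed, bases 2 to 8, in capitals.
rno-miR-208a-3p: aUAAGACGagcaaaaagc
rno-miR-208b-3p: aUAAGACGaacaaaaggu
rno-miR-499-5p: uUAAGACUugcagugauguuu
The Myh6 and Myh7 microRNAs had the same seed, UAAGACG, and that of Myh7b was UAAGACU.

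The light chain genes lay on other chromosomes of rn6. Myl2 was annotated on the minus strand of chr12:39951863-39959065 (646 exon bases) and Myl7 on the minus strand of chr14:86144770-86146750 (577 exon bases). Myl3 was on the plus strand of chr8:119030875-119036996 (902 exon bases) and Myl4 on the plus strand of chr10:92628356-92638100 (795 exon bases). None of the 6 shared exon bases with another annotated gene.

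The RefSeq promoter table (GRCr8) matched 5 of the 6 genes, all but Myl2. Windows of 250 bases before the start were searched on both strands for 7 motifs of muscle and heart promoters. They were the box bound by TEAD factors (MCAT motif, letters CATTCC) and the general promoter element known as the TATA box, searched by the letters TATAAA. The element of GATA factors was searched by the letters AGATAA, and the core of thyroid hormone response elements by the letters AGGTCA. The E-box of muscle regulators was searched by the letters CANNTG. The MEF2 site and the CArG box were searched by their usual patterns, and no motif overlapped another in these windows. Capitals mark every match except the E-boxes. The 3 windows that held such a match are shown.
Myh6 promoter window, GRCr8 chr15:32411698-32411947, minus strand: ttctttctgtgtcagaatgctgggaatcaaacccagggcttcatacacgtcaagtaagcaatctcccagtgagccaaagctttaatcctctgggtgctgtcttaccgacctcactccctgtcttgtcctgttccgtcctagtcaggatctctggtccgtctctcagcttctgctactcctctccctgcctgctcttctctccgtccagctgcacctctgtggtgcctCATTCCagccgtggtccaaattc
Myl3 promoter window, GRCr8 chr8:119616844-119617093, plus strand: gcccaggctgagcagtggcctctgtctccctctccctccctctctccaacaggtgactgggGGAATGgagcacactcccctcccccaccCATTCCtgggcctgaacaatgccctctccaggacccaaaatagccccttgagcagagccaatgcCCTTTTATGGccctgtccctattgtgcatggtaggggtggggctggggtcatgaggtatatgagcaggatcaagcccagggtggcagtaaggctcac
Myl4 promoter window, GRCr8 chr10:89975900-89976149, plus strand: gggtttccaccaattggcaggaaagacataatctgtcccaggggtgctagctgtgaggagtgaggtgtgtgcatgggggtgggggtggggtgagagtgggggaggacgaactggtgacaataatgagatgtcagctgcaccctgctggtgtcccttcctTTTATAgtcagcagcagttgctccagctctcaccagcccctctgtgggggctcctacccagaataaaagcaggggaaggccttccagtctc
The Myh6 window held 1 MCAT motif, 23 to 18 bases before the start, and the Myl3 window held 2. The Myl3 window also held a CArG box, the binding site of serum response factor, 97 to 88 bases before the start. A TATA box on the opposite strand stood 91 to 86 bases before the Myl4 start. E-boxes were in all 5 windows, and those of Myh7 and Myl7 held no other motif of the set. Of 33469 windows of this length, the MCAT motif was in 12.1%, the TATA box in 12.9%, the E-box in 65.5% and the CArG box in 1.5%. The GATA motif was in 10.3%, the thyroid hormone motif in 14.1% and the MEF2 site in 0.523%. A match, or the lack of one, is a description of the letters only. The starts are those of the RefSeq promoter table and were not checked, so a window need not hold the promoter in use.

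Libraries held 13392825 to 22850491 assigned counts. Levels are given as counts per 1000000 assigned counts (CPM), with library sizes scaled by the TMM method. All 10 fibroblast markers, among them Col1a1 and Pdgfra, had counts at every age, summing to 27553 to 53982 CPM in the fetal libraries, to 72006 to 78258 in those from neonates and to 27022 to 35570 in the adult ones. The 11 cardiomyocyte markers other than myosins summed to 6603 to 7956 CPM in fetal and 3741 to 4019 in neonatal libraries. In adult libraries they summed to 307 to 322 CPM, of which Tnnt2 alone gave 309.6 ± 6.35 (SD, n = 3), and Csrp3 was at 0. One of the fibroblast markers, Col1a2, had only 1 to 21 counts in a library, and was chosen for mention after its values were seen. Summed, the fibroblast markers were thus high at every age, beside a cardiomyocyte signal in the fetal and neonatal cultures. Single markers differed widely. In fetal libraries Col1a1 stood at 26035 CPM and Col3a1 at 12971 on average, but Dcn at 50.1 and Tcf21 at 11.8. These genes too were named after their values were seen. The 8 macrophage markers summed to 13.6 to 59.5 CPM in the fetal, to 139 to 154 in the neonatal and to 3422 to 4788 in the adult libraries. The part of these other cells in the results below was not tested. In bulk RNA, fewer cells of a type and less RNA per cell cannot be told apart.

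Fetal replicate 3 stood apart from the other fetal libraries. A chi-square statistic over genes, per degree of freedom, was 94.4 and 102 between it and fetal replicates 1 and 2, against 4.08 between those 2. The 10 skeletal muscle markers summed to 81.5 CPM in it, against 25.2 and 27.0 in the other fetal libraries, 8.97 to 11.6 in neonatal and 10.6 to 12.8 in adult ones. Fibroblast markers summed to 27553 CPM in it, against 53982 and 50858 in fetal replicates 1 and 2, and macrophage markers to 59.5 CPM, against 14.2 and 13.6. In neonatal libraries 4 of the skeletal muscle markers (Myf5, Myf6, Pax7 and Tnni2) were at 0, and in adult libraries 4 were (Myod1, Myf5, Myf6 and Pax7). Single genes made up much of some sums. Ckm gave 13.9 to 19.3 CPM in the fetal libraries, and Tnnt3 gave 8.99 to 11.5 CPM in the adult ones. Results that rest on fetal replicate 3 are given with and without it, and the part of these marker differences in them was not tested. By the same chi-square statistic, adult replicate 1 also stood apart from adult replicates 2 and 3. The values were 26.9 and 45.0, against 6.98 between those 2. Pairs of neonatal libraries gave 2.09 to 2.84.

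Summed, the 6 genes were highest in fetal, lower in neonatal and near 0 in adult cultures. Together they took 0.360% ± 0.0223 (SD, n = 3) of a fetal library's counts, 0.147% ± 0.0109 of a neonatal one's and 0.000531% ± 0.00013 of an adult one's. In neonatal against fetal cultures 5 of the 6 passed the test as lower and none as higher, where 18% of all genes tested passed as lower and 18.3% as higher. The same 5 were lower in every neonatal library than in every fetal one, where 28.1% of all genes were. In adult against fetal cultures all 6 passed as lower, where 35.5% of all genes passed as lower and 34.9% as higher. In adult against neonatal cultures all 6 did, where 31.8% passed as lower and 31.6% as higher. Every adult library was below every fetal and every neonatal one for all 6, which held for 35.8% and 38.5% of all genes. The last 2 comparisons share the adult libraries. The test was edgeR's quasi-likelihood test on the counts, and adjusted p-values are by Benjamini-Hochberg over 11337 genes.

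**Figure D1:**
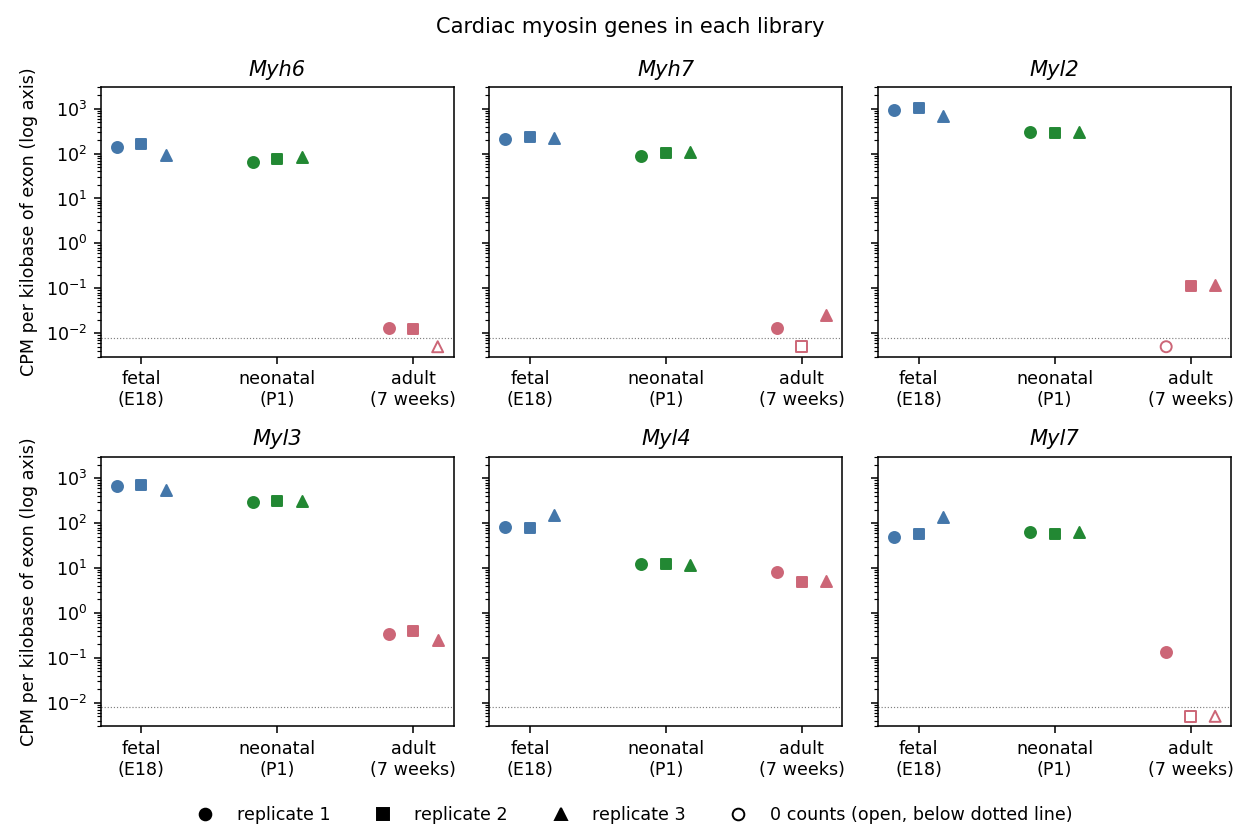
Each point is the level of a gene in 1 library, in CPM per kilobase of exon on a log axis, by age and replicate, with 0 counts drawn as open symbols below the dotted line. Neonatal points of Myh6, Myh7, Myl2, Myl3 and Myl4 all lie below the fetal ones, those of Myl7 overlap them, and Myl4 is the only gene with adult points above 1 CPM per kilobase.

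Of the heavy chains, Myh7 was the more abundant at both young ages. Myh7 stood at 1247, 1418 and 1348 CPM in fetal replicates 1, 2 and 3, at 533, 599 and 651 CPM in neonatal ones, and had 1, 0 and 2 counts in adult ones. Fetal and neonatal libraries did not overlap, and the fetal levels were close to each other. Myh7 was 2.25-fold lower in neonatal than in fetal cultures (log2 fold change -1.17, SE 0.126, adjusted p = 0.000208). Against its 3 adult counts in all, the fetal level was 18030-fold higher, with an exact 95% counting interval of 6169 to 87431 (adjusted p = 6.94e-10). The neonatal level was 7945-fold higher than the adult one, with an interval of 2718 to 38527 (adjusted p = 2.13e-09). Such intervals cover counting error only, since reads counted without molecular identifiers need not be independent. These folds are ratios of summed counts, while the adjusted p-values beside them are from edgeR's fit, here and for the genes below. That fit gave its own estimate, 16361-fold for Myh7 between fetal and adult cultures.

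Myh6, the alpha heavy chain, stood at 819, 964 and 543 CPM in the fetal libraries, at 386, 438 and 486 CPM in the neonatal ones, and had 1, 1 and 0 counts in the adult ones. Fetal replicate 3 was the lowest of its age but still above every neonatal library. The neonatal level was 1.78-fold lower than the fetal one (log2 -0.83, SE 0.193, adjusted p = 0.0107). Without neonatal replicate 1 that call was lost, at log2 -0.74 and an adjusted p of 0.0503. Against 2 adult counts in all, Myh6 was 15842-fold higher in fetal cultures, with an interval of 4385 to 130815 (adjusted p = 1.51e-08). It was 8743-fold higher in neonatal cultures, with an interval of 2420 to 72199 (adjusted p = 4.05e-08). Myh6 and Myh7 are near-identical copies, and reads that map to several places are left out by the counting program's default, so reads common to both would count for neither and the 2 levels carry that uncertainty.

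Counts over the Mir208b hairpin, inside Myh7, were 2, 3 and 11 in the fetal libraries, 0, 1 and 1 in the neonatal ones and 0 in the adult ones. The Mir208a and Mir499 hairpins had 0 counts in all 9 libraries. Mir208a shares annotated bases with another gene, Mir3546. By the counting program's default, reads over both would count for neither, so 0 counts there do not show an absence of reads. Counts over hairpins in this assay can come from the host's unspliced RNA and do not measure the mature microRNA.

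The ventricular regulatory light chain Myl2 stood at 596, 661 and 447 CPM in fetal libraries, at 194, 183 and 197 CPM in neonatal ones, and had 0, 1 and 1 counts in adult ones. The groups did not overlap, and fetal replicate 3 was again the lowest fetal library. Its neonatal level was 2.96-fold lower than the fetal one (log2 -1.57, SE 0.140, adjusted p = 8.58e-05). Against 2 adult counts in all, Myl2 was 11549-fold higher in fetal cultures (interval 3197 to 95368, adjusted p = 2.23e-09) and 3841-fold higher in neonatal ones (interval 1063 to 31720, adjusted p = 8.54e-09).

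Myl7, the atrial regulatory light chain, was not called between fetal and neonatal cultures. It stood at 29.1, 32.6 and 79.5 CPM in fetal libraries, at 36.2, 32.3 and 37.1 CPM in neonatal ones, and had 1, 0 and 0 counts in adult ones. Fetal and neonatal libraries overlapped, and fetal replicate 3 stood above all other libraries. Myl7 did not pass the test between them (log2 -0.42, SE 0.342, adjusted p = 0.363). Without fetal replicate 3 the sign turned, at log2 0.19 and an adjusted p of 0.191. Against its 1 adult count, it was 1862-fold higher in fetal cultures (interval 334 to 73561, adjusted p = 5.69e-06) and 1407-fold higher in neonatal ones (interval 252 to 55584, adjusted p = 1.32e-05).

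The ventricular essential light chain Myl3 had the smallest standard error of the 6 between fetal and neonatal cultures. Myl3 stood at 619, 629 and 490.4 CPM in fetal libraries, at 274, 277 and 282 CPM in neonatal ones and at 0.306, 0.361 and 0.225 CPM, from 4, 5 and 3 counts, in adult ones. No 2 ages overlapped. Neonatal cultures were 2.09-fold lower than fetal ones (log2 -1.06, SE 0.0983, adjusted p = 9.82e-05). Adult cultures were lower than fetal ones by log2 -10.89 (SE 0.178, adjusted p = 6.94e-10) and lower than neonatal ones by log2 -9.83 (SE 0.176, adjusted p = 2.13e-09).

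Myl4, the atrial and fetal essential light chain, was the one gene of the 6 with more than 5 counts in an adult library. It stood at 65.3, 61.6 and 119.5 CPM in fetal libraries, at 9.74, 10.0 and 9.32 CPM in neonatal ones and at 6.50, 3.97 and 4.19 CPM, from 85, 55 and 56 counts, in adult ones. The 3 ages did not overlap, and fetal replicate 3 was the highest library. Its neonatal level was 8.45-fold lower than the fetal one (log2 -3.08, SE 0.277, adjusted p = 0.000103), and log2 -2.71 without fetal replicate 3. Adult cultures were lower than fetal ones by log2 -4.07 (SE 0.304, adjusted p = 3.20e-06). The step from neonatal to adult was log2 -0.99 (SE 0.309, adjusted p = 0.0196). That last call was lost without adult replicate 2 (log2 -0.86, adjusted p = 0.0686) and without adult replicate 3 (log2 -0.90, adjusted p = 0.0670).

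**Figure D2:**
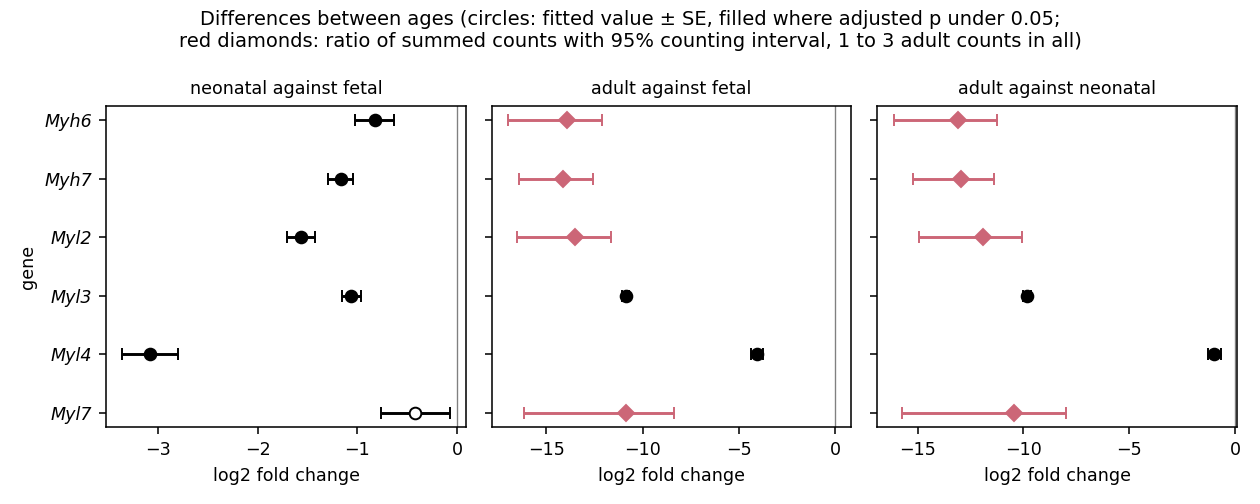
Log2 fold changes of the 6 genes for each pair of ages, where circles are fitted values with bars of 1 SE (filled where the adjusted p is under 0.05) and red diamonds are ratios of summed counts with 95% counting intervals, used for genes with 1 to 3 adult counts in all. From fetal to neonatal, Myl4 lies farthest from 0 at -3.08 and Myl7 is the one open circle.

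Per kilobase of exon, the order of the genes could be compared within an age. In fetal libraries Myl2 (692 to 1023 CPM per kilobase) and Myl3 (544 to 698) led. Their ranges overlapped, but Myl2 was above Myl3 within each of the 3 libraries. Myh7 (211 to 239) followed without overlap. The ranges of Myh6 (91.6 to 163), Myl4 (77.5 to 150.4) and Myl7 (50.5 to 138) overlapped. Within a library Myl4 was above Myl7 in all 3, and Myh6 was above both in fetal replicates 1 and 2 and below both in replicate 3. In neonatal libraries the ranges of Myl3 (303 to 313) and Myl2 (284 to 306) overlapped, with Myl3 above Myl2 within each library, and then came Myh7 (90.0 to 110.0) and Myh6 (65.2 to 81.9). Myl7 (56.1 to 64.3) stood above Myl4 (11.7 to 12.6) there, the reverse of their fetal means. In adult libraries Myl4 (4.997 to 8.18) was above Myl3 (0.249 to 0.400), and the other 4 were at 0.133 or less.

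Expressed as a share of the summed level per kilobase of the 6 genes, Myl2 gave 42.3% ± 4.20 in fetal and 34.8% ± 1.07 in neonatal libraries (SD, n = 3). Myl3 gave 31.1% ± 1.68 and 36.2% ± 0.787, and Myh7 ran from 10.1% to 12.3% in fetal and from 10.8% to 12.4% in neonatal libraries. Myh6 gave 6.26% ± 1.16 and 8.64% ± 0.737. By mean share Myl2 led in fetal libraries and Myl3 in neonatal ones. The atrial chain Myl4 gave 3.93%, 3.44% and 8.16% in fetal replicates 1, 2 and 3 and 1.32% to 1.51% in neonatal libraries, without overlap. Myl7 gave 2.41%, 2.502% and 7.48% in the fetal replicates and 6.71% to 7.52% in neonatal libraries. Fetal replicate 3 lay within the neonatal range of Myl7, and fetal replicates 1 and 2 lay below it. These shares are described without a test. In adult libraries Myl4 gave 92.6% ± 1.93, from 62 to 92 counts of all 6 genes in a library.

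**Figure D3:**
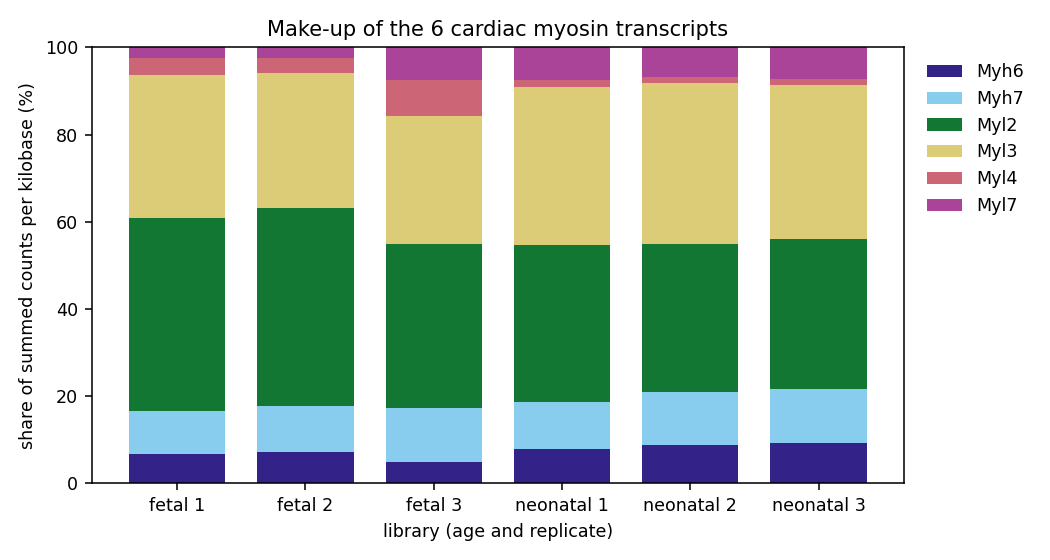
Each bar is 1 fetal or neonatal library, divided into the share (%) of each gene in the summed counts per kilobase of the 6 genes. Myl2 and Myl3 fill most of every bar, Myl4 is thinner in the neonatal bars (1.43% on average) than in the fetal ones (5.18%), and fetal replicate 3 has the widest Myl4 and Myl7 bands of the fetal bars.

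The ratio of Myh6 to Myh7, used as a sign of the maturity of cardiomyocytes carried over into culture, does not depend on how libraries are scaled. Per kilobase it was 0.656, 0.679 and 0.403 in fetal libraries and 0.724, 0.731 and 0.745 in neonatal ones. All neonatal libraries lay above all fetal ones, and in all 6 the beta chain exceeded the alpha chain. The log2 difference was 0.38 (neonatal 1.30-fold higher), with a two-sided exact permutation p of 0.1, the smallest that 3 against 3 libraries can give, and 0.133 after adjustment over the 4 ratios tested. Without fetal replicate 3 the difference shrank to log2 0.14. Adult libraries held 1 and 1, 1 and 0, and 0 and 2 counts of Myh6 and Myh7, which give no ratio.

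The ratio of the atrial to the ventricular regulatory light chain, Myl7 to Myl2, was 0.0547, 0.0552 and 0.199 in fetal libraries and 0.209, 0.198 and 0.210 in neonatal ones. Fetal replicate 3 lay within the neonatal range, and the ages therefore overlapped. The log2 difference was 1.28 (exact permutation p = 0.2, adjusted 0.2), and 1.90 without fetal replicate 3 (exact permutation p = 0.1).

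The ratio of the essential light chains, Myl4 to Myl3, went the other way. It was 0.120, 0.111 and 0.277 in fetal libraries and 0.0404, 0.0410 and 0.0375 in neonatal ones, without overlap. The log2 difference was -1.96 (exact permutation p = 0.1, adjusted 0.133). It was -1.54 without fetal replicate 3. In adult replicates 1 and 2 the ratio was 24.1 (95% counting interval 9.08 to 90.5) and 12.5 (5.04 to 39.95), from 4 and 5 counts of Myl3. Myl4 thus exceeded Myl3 in both. The other atrial chain, Myl7, had 1, 0 and 0 counts in adult replicates 1, 2 and 3.

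**Figure D4:**
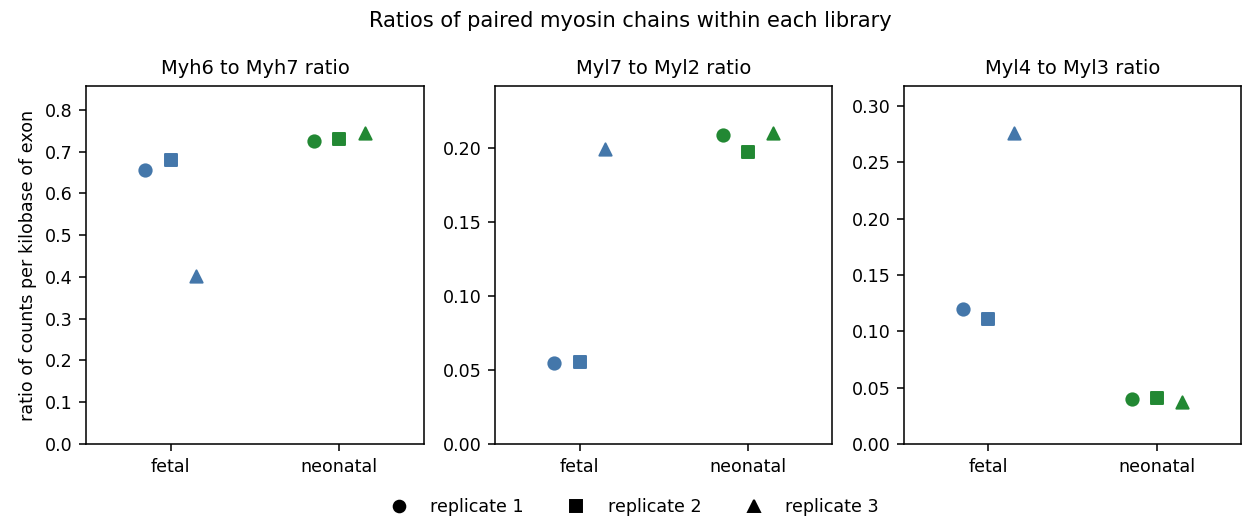
Ratios of counts per kilobase of exon within each fetal and neonatal library, for the heavy chains, the regulatory light chains and the essential light chains, with 1 point per library and axes from 0. Fetal replicate 3 (triangle) is the lowest fetal point for Myh6 to Myh7 (0.403) and the highest fetal point for Myl7 to Myl2 (0.199) and Myl4 to Myl3 (0.277).

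The 6 genes were also set against the 11 other cardiomyocyte markers in the same library. Their summed counts per kilobase were 0.321, 0.325 and 0.334 of those of the markers in fetal libraries and 0.266, 0.265 and 0.267 in neonatal ones, without overlap. The log2 difference was -0.30 (exact permutation p = 0.1, adjusted 0.133). It turned to 0.05 (exact permutation p = 0.4) when Tnnt2 and Actc1 were left out of the markers. Adult libraries gave 0.0310, 0.0193 and 0.0193, where the markers were mostly Tnnt2. Against the 11 markers, the neonatal libraries lay below the fetal ones without overlap for Myl4 (log2 -2.04), Myl2 (-0.57) and Myl3 (-0.08). They overlapped for Myh7 (-0.20), Myh6 (0.18) and Myl7 (0.71). These single-gene values share the same marker sum, so the choice of markers shifts all of them alike and can turn the sign of small ones. They were not given without Tnnt2 and Actc1.

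Beside the marker sums given above, single cardiac and skeletal muscle genes also set fetal replicate 3 apart. Mylpf, the fast skeletal regulatory light chain, stood at 6.70, 7.23 and 64.6 CPM in fetal replicates 1, 2 and 3. Myh3, the embryonic skeletal heavy chain, stood at 23.4, 26.0 and 103.7 CPM, and Myl1, the fast skeletal essential light chain, at 4.92, 4.06 and 16.5 CPM. Myog, a regulator of skeletal muscle differentiation, stood at 3.997, 2.82 and 22.6 CPM. The cardiac hormone gene Nppa was lower in that library, at 3685, 3833 and 1607 CPM, as were the ventricular factor Hey2 (24.9, 23.5 and 6.85 CPM) and the thyroid hormone receptor gene Thrb (16.2, 16.4 and 2.02 CPM). Another ventricular factor, Irx4, did not share this drop and ran from 14.7 to 16.8 CPM over the fetal libraries. The single genes named for fetal replicate 3 were chosen after their values were seen and do not stand for their lists. Of the 6 cardiac genes, Myh6, Myl2 and Myl3 were lowest there among fetal libraries, Myl4 and Myl7 were highest, and Myh7 lay between the other 2.

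**Figure D5:**
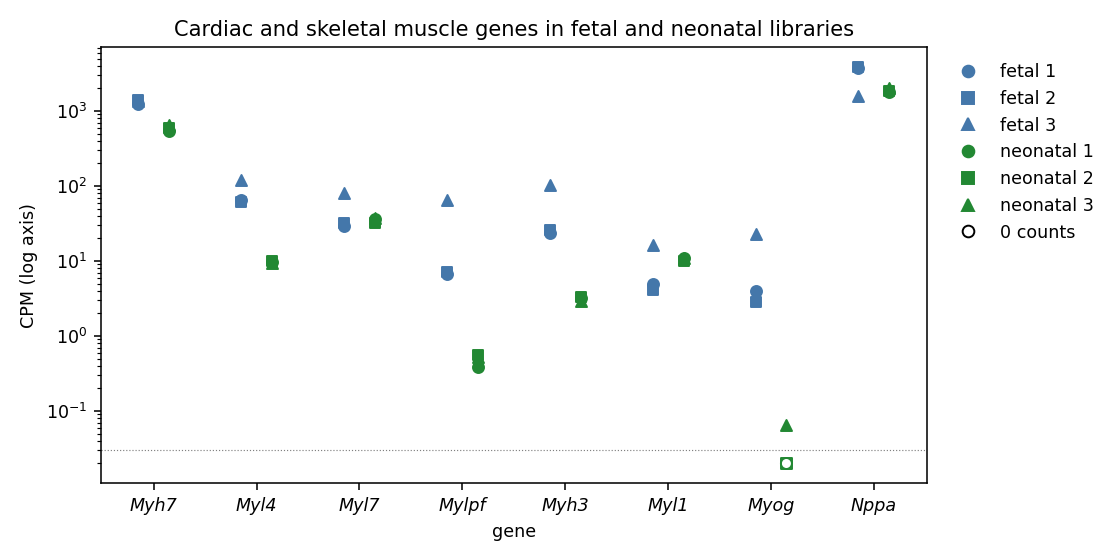
CPM on a log axis of 3 cardiac myosin genes, 4 skeletal muscle genes and Nppa in each fetal (blue) and neonatal (green) library, with 0 counts as open symbols below the dotted line. The triangle of fetal replicate 3 stands above both other fetal libraries for Myl4, Myl7, Mylpf, Myh3, Myl1 and Myog and below them for Nppa (1607 CPM).

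Most other thick filament and myosin assembly genes were also lower at the later ages. Of 10 tested, 8 were called lower and 0 higher in neonatal against fetal cultures, where 18% of all genes were lower and 18.3% higher. Their median log2 fold change was -0.91, against -0.01 over all genes. In adult against fetal cultures 7 were lower and 0 higher, where 35.5% of all genes were lower and 34.9% higher. In adult against neonatal cultures 8 were lower and 2 higher, where 31.8% of all genes were lower and 31.6% higher. Mybpc3, cardiac myosin binding protein C, stood at 204 ± 12.8, 111 ± 12.1 and 1.39 ± 0.345 CPM in fetal, neonatal and adult libraries (SD, n = 3). Myom1, the M-band protein myomesin, stood at 94.5 ± 11.9, 47.1 ± 4.54 and 0.645 ± 0.107 CPM. Both fell at each step (adjusted p at most 0.000404). Smyd2, a lysine methyltransferase, was lower in neonatal than in fetal cultures (log2 -0.54, adjusted p = 0.00228) and higher in adult than in neonatal ones (log2 0.47, adjusted p = 0.00154). Its level ran from 99.6 ± 11.2 through 68.5 ± 3.58 to 95.1 ± 6.40 CPM. Myh7b, whose protein is scarce in heart, had a like course, at 6.32, 4.06 and 5.42 CPM in the fetal, at 3.19, 3.67 and 2.78 in the neonatal and at 5.82, 5.20 and 5.47 in the adult libraries. It fell from fetal to neonatal (log2 -0.70, adjusted p = 0.0260) and was higher in adult than in neonatal libraries (log2 0.77, adjusted p = 0.00968).

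The thin filament genes all fell at each step. All 9 tested were lower in each of the 3 comparisons, where 18% (neonatal against fetal), 35.5% (adult against fetal) and 31.8% (adult against neonatal) of all genes were, with medians of -1.11 from fetal to neonatal and -6.82 from fetal to adult. Actc1, cardiac actin, stood at 2714 ± 159.8, 1256 ± 60.3 and 0.375 ± 0.227 CPM. Tnnt2, cardiac troponin T, kept 309.6 ± 6.35 CPM in adult libraries, after 2560 ± 362 in fetal and 1637 ± 41.2 in neonatal ones. Tpm1, a tropomyosin that many cells express, stood at 3456 ± 208, 2557 ± 26.3 and 981 ± 147 CPM. Its neonatal fall was log2 -0.43 (SE 0.114, adjusted p = 0.0167).

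Of 11 Z-disc and calcium cycling genes, 10 were lower in neonatal than in fetal cultures. All 11 were lower in adult cultures than at either other age. Of all genes, 18% were lower in neonatal against fetal, 35.5% in adult against fetal and 31.8% in adult against neonatal cultures. The median of the 11 genes from fetal to neonatal was -0.85. Actn2, the Z-disc actinin, stood at 429 ± 35.9, 239.9 ± 23.7 and 0.565 ± 0.358 CPM. Casq2, the calcium store protein of cardiac sarcoplasmic reticulum, stood at 386 ± 82.2, 255 ± 13.9 and 0.764 ± 0.335 CPM. Atp2a2, the calcium pump that most cells also use, kept 439 ± 4.03 CPM in adult libraries, after 881 ± 42.2 and 699 ± 18.5.

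The other myosins did not move as 1 group. The skeletal muscle list had 6 genes tested, which were 5 myosins (Myh1, Myh2, Myh3, Myl1 and Mylpf) and Mybpc1, a myosin binding protein C gene. Of the 6, 3 (Myh3, Mylpf and Mybpc1) were lower and 1 (Myh2) higher in neonatal against fetal cultures. Over all genes tested, 18% were lower and 18.3% higher. Without fetal replicate 3, 3 of the 6 were lower and 3 higher. Myh3 fell from fetal to neonatal by log2 -4.01 (adjusted p = 0.00160) and by -2.97 without that library, and Mylpf fell by -5.72 (adjusted p = 0.00415) and by -3.81 without it. Myl1 was not called (log2 0.33, adjusted p = 0.651), and without fetal replicate 3 it was higher in neonatal cultures (log2 1.25, adjusted p = 0.000451). Mybpc1 had 15, 16 and 72 counts in the fetal libraries and 0 in the other 6. All 5 myosins and Mybpc1 were lower in adult than in fetal cultures, where 35.5% of all genes were.

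The smooth muscle and nonmuscle list had 9 genes tested, 8 myosins and the myosin light chain kinase gene Mylk. Of the 9, 2 were higher and 1 lower in neonatal against fetal cultures (1 higher and 2 lower without fetal replicate 3), with a median of 0.26. Over all genes tested, 18.3% were higher and 18% lower, so counts this small do not set the list apart. In adult against neonatal cultures 7 of the 9, Mylk among them, were lower and 1 was higher. Of all genes, 31.8% were lower and 31.6% higher in that comparison. Myh10, a nonmuscle heavy chain, fell from 2644 ± 373 through 1819 ± 54.4 to 429 ± 54.7 CPM, with adjusted p of 0.00975 for the first step and 1.42e-06 for the second. Myl9, the smooth muscle regulatory light chain, stood at 1307 ± 267, 1886 ± 41.7 and 930.1 ± 227 CPM, and passed as lower in adult than in neonatal cultures (log2 -1.02, adjusted p = 0.00148). Myl12a, a nonmuscle regulatory light chain, stood at 948 ± 12.3, 1052 ± 18.4 and 911 ± 57.4 CPM, and its log2 of -0.06 between adult and fetal did not pass (adjusted p = 0.476).

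Among 11 cardiac transcription factors tested, 1 was higher and 4 were lower in neonatal than in fetal cultures. Of all genes, 18.3% were higher and 18% lower there, and the median of the 11 factors was -0.03. In adult cultures 9 were lower than in fetal ones, where 35.5% of all genes were, and 10 were lower than in neonatal ones, where 31.8% were. Gata4, which fibroblasts of the heart also express, was the one called higher in neonatal cultures (log2 0.69, SE 0.149, adjusted p = 0.00732), at 137 ± 31.5, 221 ± 1.45 and 140.1 ± 11.3 CPM. Mef2a stood at 86.4 ± 3.06, 94.8 ± 4.07 and 35.5 ± 1.29 CPM, and Srf, which binds CArG boxes, at 150.1 ± 5.59, 147 ± 8.25 and 125 ± 11.4 CPM. Neither was called between fetal and neonatal cultures, and both were lower in adult than in neonatal ones (adjusted p = 1.98e-07 and 0.0255).

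Of 8 tested genes of thyroid hormone receptors and hormone handling, 4 were higher and 0 lower in neonatal than in fetal cultures. Their median was 0.32, and 3 were higher and 0 lower without fetal replicate 3. Over all genes tested, with every library kept, 18.3% were higher and 18% lower. DIO3 inactivates thyroid hormone, and its gene Dio3 stood at 18.0 to 23.2 CPM in adult libraries and at 1.59 or less in fetal and neonatal ones (adult against neonatal, log2 6.32, adjusted p = 0.000110). Dio3 was named after its values were seen. Thra, the receptor gene most expressed in heart, stood at 47.8 ± 7.75, 64.8 ± 3.07 and 43.1 ± 8.18 CPM. Its neonatal rise (log2 0.44, adjusted p = 0.0441) was lost without fetal replicate 3 (log2 0.32, adjusted p = 0.0702). The corepressor gene Ncor1 stood at 171 ± 8.53, 159 ± 8.08 and 108 ± 0.904 CPM and the coactivator gene Ncoa1 at 37.2 ± 4.31, 47.7 ± 1.49 and 29.0 ± 1.72 CPM. Ncoa1 was higher in neonatal than in fetal cultures (log2 0.36, adjusted p = 0.0168).

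The genes with the most similar profiles were found by the root mean square (RMS) difference of log2 CPM over the 9 libraries, each gene centred on its mean, among 8938 genes that reached a mean of 10 CPM at an age. A smaller value is a closer profile, and the fall to near 0 counts in adult libraries dominates it. At 0 counts log2 CPM sits at a floor, so the size of that fall follows the fetal and neonatal level. Genes of like abundance that fall to near 0 therefore tend to come out close. Nearest to Myh7 were Actc1 (0.155), Nppa (0.610) and the slow skeletal and fetal cardiac troponin I gene Tnni1 (1.12), where the median over candidates was 5.82. Nearest to Myh6 were Actc1 (0.562), Nppa (0.911) and Sh3bgr (0.998), and nearest to Myl2 were Tnni1 (0.556), Sh3bgr (0.595) and Actc1 (0.666). Myl3 was closest to Sh3bgr (0.213), the Z-disc gene Csrp3 (0.303) and Tnni1 (0.411). Myl7 was closest to the Z-disc gene Ldb3 (0.548), the cartilage proteoglycan gene Acan (0.554) and Smpx (0.596), with a median over candidates of 3.87.

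Myl4 had neighbours of another kind. They were the cell polarity gene Pard6b (RMS 0.352), the scavenger receptor gene Scara3 (0.365) and the surface glycoprotein gene Cd24 (0.368), with a median over candidates of 1.75. Pard6b stood at 18.8, 3.57 and 1.32 CPM on average in fetal, neonatal and adult libraries, Scara3 at 92.1, 9.73 and 3.75, and Cd24 at 39.9, 3.61 and 2.69. Among the 6 genes themselves, Myh6 and Myh7 differed by an RMS of 0.563 and Myl2 and Myl3 by 0.594. Myl4 differed from each of the other 5 by 2.88 to 4.68, and Myl7 from Myh6, Myh7, Myl2 and Myl3 by 1.04 to 2.04.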

How the data were processed

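Gene counts of 9 RNA-seq libraries, 3 per age, were used as deposited. The authors ran featureCounts 1.6.3 on an rn6 annotation to get the counts, per the file headers, and gave only annotation and output options, so counting was unstranded and left out reads mapping to several places, which are the program's defaults. The submitters' processing notes name FastQC, Trimmomatic 0.39, STAR 2.5.2b, Subread 1.6.3 and DESeq2. The authors' second deposited table holds normalized signal values, which equal the counts divided by 1 size factor per library and served only as a check of that scaling. Exon lengths came from the count table.

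The test was edgeR's quasi-likelihood test (version 4.0.16, R 4.3.3, with filterByExpr, TMM and robust glmQLFit), fitted to all 9 libraries by age. The Benjamini-Hochberg adjustment ran over 11337 genes, with a threshold of 0.05. Log2 CPM used a prior count of 2. Each SE is the absolute log2 fold change divided by the square root of the test's F statistic, not a separate estimate. Ratios within a library were compared by two-sided exact permutation tests. Where a gene had 1 to 3 counts over the 3 adult libraries, the ratio of summed counts is given with an exact (Clopper-Pearson) 95% interval. The adjusted p beside it is that of the edgeR test. The fitting was tested on simulated data.

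The genes, lists and rules were chosen with earlier results of these data known. By rule, the text names the 6 genes, the 3 listed genes of each list with the highest mean CPM, and for each of the 6 the 3 genes of closest profile. Genes named to describe fetal replicate 3, single fibroblast markers, and Myh7b and Dio3, were chosen after their values were seen. Some listed genes were not analysed here. Alternatives were DESeq2 1.42.0, other scalings, no filter, a replicate block, fits of 2 ages, a fold threshold (glmTreat), each library left out, other ratio settings, and list counts without fetal replicate 3, the last chosen after seeing the data.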

Additional observations from a re-analysis of the deposited data

How the results depend on the processing

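Over 16 alternatives for each pair of ages, 91 of 96 values of the 6 genes kept direction and side of the threshold from fetal to neonatal, 96 of 96 from fetal to adult and 93 of 96 from neonatal to adult. Leaving out 1 library left 4 to 5 of the 6 genes called from fetal to neonatal, 6 from fetal to adult and 5 to 6 from neonatal to adult. The log2 fold change of Myl7 from fetal to neonatal turned from -0.42 to 0.19 without fetal replicate 3, and ran from -0.67 to 0.19 over the libraries left out. Against a log2 fold change of 1 (glmTreat), which is stricter by construction, 2 of the 6 genes (Myl2 and Myl4) were called from fetal to neonatal, and over all genes 360, 2648 and 1837 were called for neonatal against fetal, adult against fetal and adult against neonatal, where 4114, 7987 and 7197 were called without it. Leaving out 1 library moved those counts to 2476 to 4679, 7509 to 8616 and 6210 to 8322, and the first was 2607, 2476 and 2575 without neonatal replicates 1, 2 and 3. Scaling by library size alone shifted the median log2 of all genes by -0.17 from fetal to neonatal and by -0.11 from fetal to adult. From fetal to neonatal it called 1360 genes higher and 3325 lower, against 2074 and 2040 with TMM. Relative to the other cardiomyocyte markers the 6 genes moved from -0.30 to -0.21 with counts not divided by length and turned to 0.045 without Tnnt2 and Actc1, and the cause was not tested. With 1 library left out, the log2 differences ranged from 0.14 to 0.51 for Myh6 to Myh7, from 0.97 to 1.90 for Myl7 to Myl2, from -2.20 to -1.54 for Myl4 to Myl3 and from -0.31 to -0.28 for the 6 genes against the markers. Libraries of the same replicate number did not deviate together (correlations of -0.0649 to 0.0521), and not every library correlated best with its own number. With the replicate number as a block, 5, 6 and 6 of the 6 genes and 3713, 7801 and 6985 of all genes were called, and the ratio differences stayed at 0.38, 1.28, -1.96 and -0.30, where 3 pairs cannot give an exact p under 0.25. Adult levels of Myh6, Myh7, Myl2 and Myl7 rest on 1 to 3 counts in all, so differences among them were not detectable at this depth.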
